A study of Homo sapiens with 12 samples.

Results

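The 7 genes described are UGT2B4, UGT2B7, UGT2B10, UGT2B11, UGT2B15, UGT2B17 and UGT2B28, the UDP-glucuronosyltransferases of subfamily 2B that the array design names. They were taken as every probe whose symbol is one of these names, of 34602 symbols in all, which gave 15 of the 47231 probes that are not spike-in controls. A probe was tested where it was detected above the negative controls (detection p-value under 0.05) on at least 3 of the 12 arrays, and 12 of the 15 UGT2B probes were among the 21959 probes that passed. Each of the 7 genes kept at least 1 probe.

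Expression was measured in LNCaP, an established human prostate cancer cell line that responds to androgen. The 12 arrays form 4 groups of 3: ERRγ siRNA with R1881, ERRγ siRNA with vehicle, control siRNA with R1881 and control siRNA with vehicle. ERRγ is the estrogen-related receptor gamma, an orphan nuclear receptor encoded by ESRRG, and R1881 is a synthetic androgen that cells metabolise poorly. In every group the medium held 2% steroid-stripped serum and no phenol red. Cells were replated 48 h after transfection and given 10 nM R1881 or its ethanol vehicle for 72 h. The labels speak of triplicates without naming separate cultures, so p-values here rest on differences among arrays that may be technical repeats. The arrays detected 18695 to 20533 probes each. The androgen response was present in KLK3, the gene of prostate-specific antigen, in control siRNA cells. Its brightest probe, 460202, was 5.48 ± 0.14 (SE) log2 units higher with R1881 than with vehicle (limma, adjusted p = 1.59e-12). The other KLK3 probes rose less, by 3.7 for 3780491 (raw signals of 92.6 to 414.8) and 0.74 for 5050301 (86.3 to 121.8). The siRNA could not be checked in the same way. The 3 ESRRG probes were detected on 0 of the 12 arrays, with raw signals of 86 to 99.9, so a loss of ESRRG RNA was not detectable. LNCaP is a luminal prostate line, and all 10 luminal markers listed passed the filter, KRT8 and KRT18 among them. Of 7 basal markers listed, only 1 passed, LAMA3, which was detected on 12 arrays. KRT5, KRT14 and TP63 were among those that did not.

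UDP-glucuronosyltransferases are enzymes of the endoplasmic reticulum that join glucuronic acid, carried by UDP, to steroids, bile acids and drugs, which makes these molecules water-soluble and ready for export. In the prostate, UGT2B15 and UGT2B17 are known as the enzymes that conjugate dihydrotestosterone and its metabolites androsterone and androstanediol, and so end the action of androgen inside the cell. The subfamily lies as a cluster of closely related genes on chromosome 4, and its members differ in the steroids, fatty acids, bile acids and drugs they accept.

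The promoters of UGT2B7, UGT2B10, UGT2B11 and UGT2B15 are shown because they are the 4 of the 7 genes for which a promoter sequence was used here, and because 1 of these genes fell strongly with androgen and another rose strongly. Each runs from 250 bases before the gene's start to 50 bases after it, 5′ to 3′ on the gene's own strand, in RefSeq coordinates on GRCh38.p14. UGT2B7 lies on the plus strand at chr4:69096224-69096523, UGT2B10 on the plus strand at chr4:68815744-68816043, UGT2B11 on the minus strand at chr4:69214699-69214998 and UGT2B15 on the minus strand at chr4:68670603-68670902. Capitals mark AGGTCA (a half-site of estrogen-related and other nuclear receptors), AGAACA (a half-site of steroid receptors), and TATTTAC and TGTTTAC (cores bound by forkhead factors such as FOXA1), read on either strand.
UGT2B7: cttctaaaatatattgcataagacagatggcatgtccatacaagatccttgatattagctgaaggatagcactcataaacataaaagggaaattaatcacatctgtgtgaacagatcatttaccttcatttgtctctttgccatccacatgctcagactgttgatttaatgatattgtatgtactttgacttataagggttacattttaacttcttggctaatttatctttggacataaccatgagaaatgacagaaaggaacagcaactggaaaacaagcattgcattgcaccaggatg
UGT2B10: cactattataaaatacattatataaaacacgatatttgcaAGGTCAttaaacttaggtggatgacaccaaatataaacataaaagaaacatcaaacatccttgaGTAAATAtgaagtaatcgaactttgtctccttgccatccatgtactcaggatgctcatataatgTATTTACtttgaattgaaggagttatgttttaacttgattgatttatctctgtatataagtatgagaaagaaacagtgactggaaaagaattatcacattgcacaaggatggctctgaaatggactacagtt
UGT2B11: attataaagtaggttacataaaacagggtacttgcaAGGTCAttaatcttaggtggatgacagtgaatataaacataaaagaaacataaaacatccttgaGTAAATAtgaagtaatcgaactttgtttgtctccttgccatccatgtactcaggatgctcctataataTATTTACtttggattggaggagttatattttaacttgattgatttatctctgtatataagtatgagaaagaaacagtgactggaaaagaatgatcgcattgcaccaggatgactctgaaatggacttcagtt
UGT2B15: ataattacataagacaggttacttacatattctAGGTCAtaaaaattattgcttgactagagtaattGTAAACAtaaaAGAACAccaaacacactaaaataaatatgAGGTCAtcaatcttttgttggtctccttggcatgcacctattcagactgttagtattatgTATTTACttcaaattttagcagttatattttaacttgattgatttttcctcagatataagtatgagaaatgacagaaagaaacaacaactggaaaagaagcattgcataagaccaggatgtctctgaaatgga

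The UGT2B10 and UGT2B11 promoters were 92.6% identical over 296 aligned bases, the closest pair of the 4. UGT2B11 and UGT2B15 were 78.4% identical over 282 bases, and UGT2B7 was 71.5% to 73.6% identical to the others. AGGTCA stood in 3 of the 4 promoters, all but that of UGT2B7, against 13.8% of the 35116 promoters in the table. In UGT2B10 and UGT2B11 it was preceded by A, giving AAGGTCA, a string that contains AGGTCA and that 3.92% of all promoters held. UGT2B15 had 2 copies of AGGTCA, beginning at positions -217 and -143, counted back from the gene's start. TATTTAC stood in the same 3 promoters, against 2.67% of all promoters, and its plus-strand copy began at position -82 in UGT2B10 and UGT2B11 and at -83 in UGT2B15. AGAACA was found in UGT2B15 alone, where 14.8% of all promoters held it, and TGTTTAC likewise, where 3.42% did. None of the searched letters stood in the UGT2B7 window. These are matches of letters, not measured binding, and the promoters are paralogous, so their shared letters are not independent of one another. The 4 windows held 30.3% to 35.0% G and C. The shares over all promoters were not matched for base composition, so enrichment of a string was not tested.

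UGT2B17 had the strongest loss of signal under androgen in the family, and UGT2B15 followed it. For UGT2B17 probe 6860392, the raw signals with control siRNA were 497, 754 and 647 with R1881, against 4626, 4076 and 3942 with vehicle. With ERRγ siRNA they were 532, 675 and 649 with R1881, against 5075, 4508 and 4763 with vehicle. Every R1881 array was thus far below every vehicle array, whichever siRNA the cells had received. After background correction and quantile normalization, the probe was 7.63-fold lower with R1881 in control siRNA cells, a log2 change of -2.93 ± 0.13 (SE; limma, Benjamini-Hochberg adjusted p = 4.5e-10). With the ERRγ siRNA it was 9.9-fold lower (log2 change -3.31, adjusted p = 1.29e-10).

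The other tested UGT2B17 probes fell as well. Probe 2350564 read 310, 382 and 329 with R1881, against 2491, 2112 and 1692 with vehicle, in control siRNA cells. That was 7.91-fold lower with R1881 (log2 change -2.98 ± 0.11, adjusted p = 6.37e-11), and only 17 of the 21959 tested probes fell further. ERRγ siRNA cells read 304, 312 and 340 with R1881, against 2433, 2015 and 2436 with vehicle, and the probe was 10.6-fold lower there (adjusted p = 1.72e-11). Probe 6290189 was dim, at 98, 106 and 112 with R1881, against 346, 236 and 260 with vehicle, in control siRNA cells. It was detected on 2 of the 3 R1881 arrays of each siRNA and on all vehicle arrays. Its change was -2.91 ± 0.16 on the log2 scale (adjusted p = 4.33e-09) in control siRNA cells and -3.28 (adjusted p = 1.24e-09) in ERRγ siRNA cells. With R1881 it was near background, and in the authors' table the change in control siRNA cells was -0.87, against -2.50 for probe 2350564 and -2.84 for probe 6860392. The fourth UGT2B17 probe, 2690725, was detected on 0 arrays, with raw signals of 85.9 to 94.7, and was not tested.

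UGT2B15, whose enzyme shares dihydrotestosterone as a substrate with that of UGT2B17, fell with R1881 on both of its probes. Probe 2810221 read 238, 343 and 286 with R1881, against 1592, 1368 and 1157 with vehicle, in control siRNA cells. ERRγ siRNA cells had 276, 328 and 316 with R1881, against 1526, 1414 and 1479 with vehicle. The groups did not overlap. The probe was 6.57-fold lower with R1881 in control siRNA cells (log2 change -2.72 ± 0.13, adjusted p = 5.72e-10) and 7.13-fold lower in ERRγ siRNA cells (log2 change -2.83, adjusted p = 3.51e-10).

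UGT2B15 probe 5860433 was detected on none of the 6 R1881 arrays and on all 6 vehicle arrays, so its fall has only a bound. With control siRNA its raw signals were 97, 91 and 103 with R1881, against 154, 134 and 125 with vehicle. The bound sets the vehicle mean against, on each R1881 array, the higher of the probe's own value and the lowest value detected on that array. The fitted log2 change was -1.50 in control siRNA cells (limma, adjusted p = 2.71e-07) and -1.63 in ERRγ siRNA cells (adjusted p = 1.14e-07). By the bound, the probe was at least 2.5-fold lower with R1881 in control siRNA cells and at least 2.71-fold lower in ERRγ siRNA cells. The bounds compare means, leave out the spread between arrays and were not tested. These bounds hold for the background correction used: the log2 change in control siRNA cells was -0.52 with no background correction and -0.23 in the authors' normalized table. In bulk RNA, fewer cells expressing a gene and less RNA per cell cannot be told apart.

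UGT2B28 and UGT2B11 moved the other way. UGT2B28 encodes an enzyme known to act on androgens and estrogens, and its probe 5870372 had the largest rise of the family. With control siRNA its raw signals were 1226, 1765 and 1497 with R1881, against 179, 155 and 141 with vehicle. With ERRγ siRNA they were 1242, 1699 and 1564 with R1881, against 176, 180 and 197 with vehicle. The probe was 16.7-fold higher with R1881 in control siRNA cells (log2 change 4.06 ± 0.14, adjusted p = 3.06e-11), and 15 of the tested probes rose further. In ERRγ siRNA cells it was 11.9-fold higher (log2 change 3.57, adjusted p = 1.19e-10), with 23 probes above it.

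UGT2B11, whose enzyme is known for conjugating oxidised fatty acids, rose on both of its probes, by different amounts. Probe 70253 read 2473, 3069 and 2955 with R1881, against 371, 286 and 267 with vehicle, in control siRNA cells. In ERRγ siRNA cells it read 2148, 2625 and 2613 with R1881, against 333, 330 and 349 with vehicle. It was 11.7-fold higher with R1881 in control siRNA cells (log2 change 3.55 ± 0.11, 95% interval 3.32 to 3.79, adjusted p = 7.9e-12) and 8.08-fold higher in ERRγ siRNA cells (adjusted p = 4.22e-11).

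UGT2B11 probe 5560170 read 1379, 1921 and 1742 with R1881, against 713, 585 and 551 with vehicle, in control siRNA cells. Cells given ERRγ siRNA read 1247, 1641 and 1688 with R1881, against 797, 705 and 852 with vehicle. It was 2.77-fold higher with R1881 in control siRNA cells (log2 change 1.47 ± 0.14, 95% interval 1.18 to 1.76, adjusted p = 8.82e-07) and 1.7-fold higher in ERRγ siRNA cells (adjusted p = 0.000448). The intervals of the 2 UGT2B11 probes did not overlap in control siRNA cells. Whether either probe also binds RNA of a paralog was not tested, since no probe sequence was used here. The same holds for every probe of this family.

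**Figure D1:**
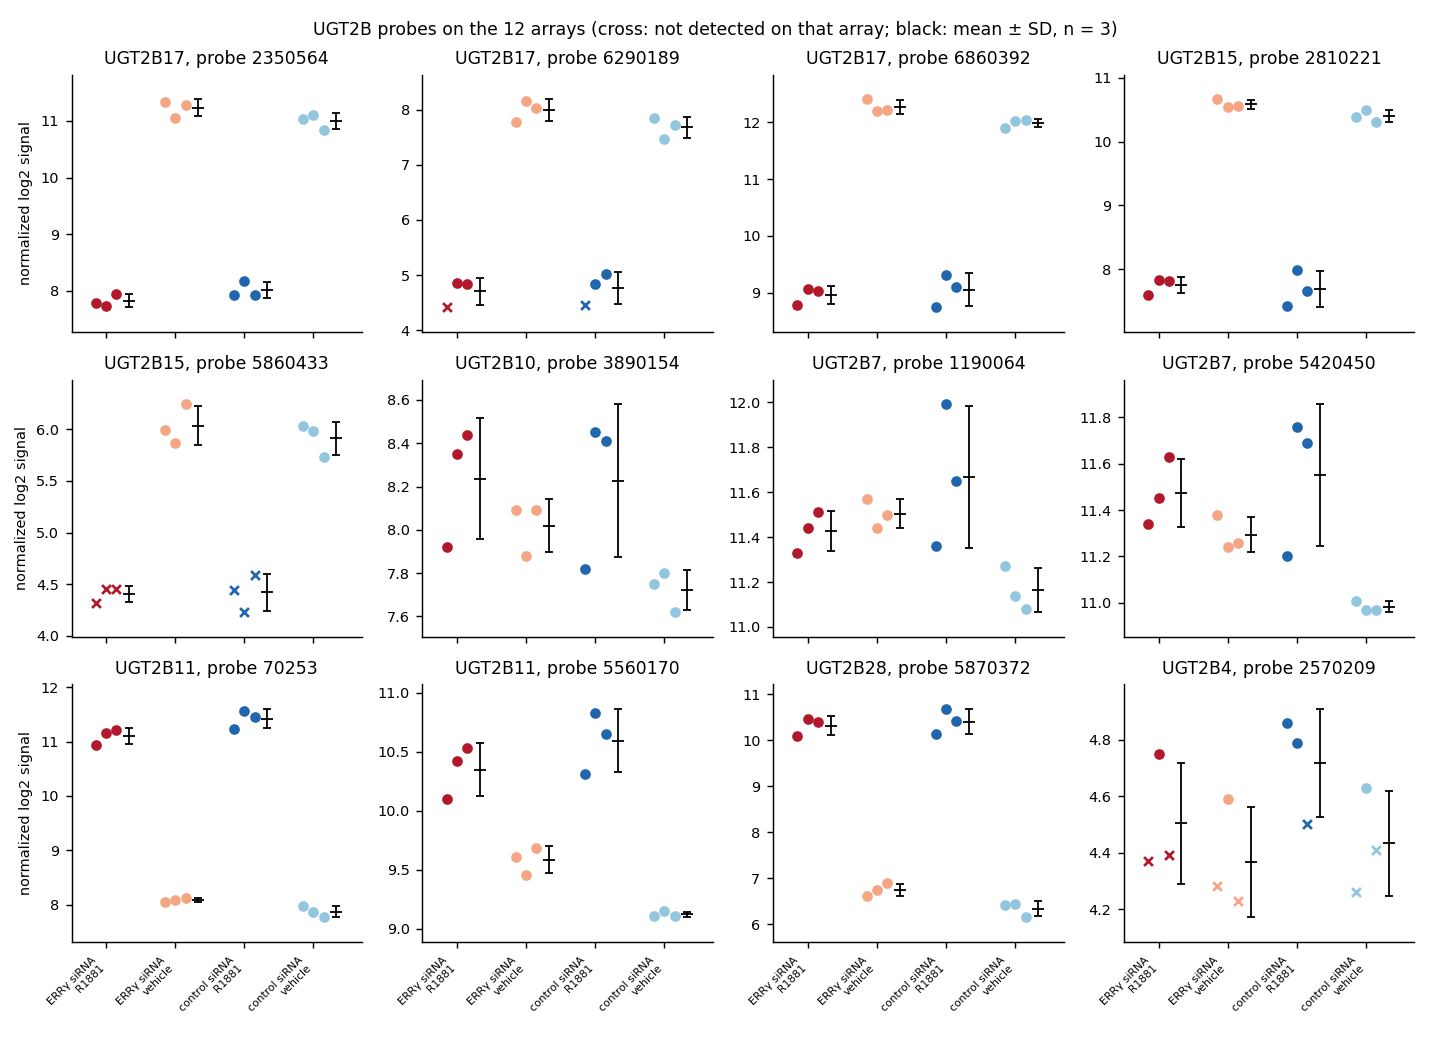
Normalized log2 signal (vertical axes, which differ between panels) of the 12 tested UGT2B probes on each array of the 4 groups (horizontal axes). Coloured points are arrays, crosses are arrays on which the probe was not detected, and black bars give the mean ± SD of 3 arrays. The UGT2B17 and UGT2B15 probes sit lower with R1881 under both siRNAs, for instance at 8.96 and 9.05 with R1881 against 12.27 and 11.99 with vehicle for UGT2B17 probe 6860392, while UGT2B11 and UGT2B28 sit higher.

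UGT2B7 and UGT2B10 showed only small rises, and in control siRNA cells alone did they pass the test. Whether the response differed between the siRNAs was tested separately, further below, and was not called for these probes. UGT2B7 encodes an enzyme of broad range that conjugates opioids, estrogens and androsterone, and UGT2B10 encodes one known for joining glucuronic acid to nitrogen, as in nicotine. UGT2B7 probe 5420450 read 2420, 3395 and 3410 with R1881, against 2451, 1924 and 1838 with vehicle, in control siRNA cells. The raw groups overlapped in 1 array and the normalized ones did not. The probe was 1.48-fold higher with R1881 (log2 change 0.57 ± 0.13, adjusted p = 0.00321). UGT2B7 probe 1190064 was 1.42-fold higher (log2 change 0.51 ± 0.13, adjusted p = 0.0069).

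In ERRγ siRNA cells the UGT2B7 probes had R1881 changes of 0.18 (adjusted p = 0.323) for 5420450 and -0.08 (adjusted p = 0.702) for 1190064 on the log2 scale. Probe 5420450 read 2782, 3177 and 3508 with R1881, against 2493, 2299 and 2370 with vehicle, there. With the arrays scaled to a common median in place of quantile normalization, its change was 0.39 and passed the test (adjusted p = 0.0499). The remaining UGT2B7 probe, 6400221, was detected on 1 array, with raw signals of 91.8 to 110.6, and was not tested.

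UGT2B10 probe 3890154 read 292, 444 and 430 with R1881, against 329, 276 and 249 with vehicle, in control siRNA cells. It was 1.42-fold higher with R1881 (log2 change 0.50 ± 0.17, adjusted p = 0.0264). This call was lost in the authors' normalized table (0.28, adjusted p = 0.059) and without the filter on dim probes (adjusted p = 0.0612). It was also lost without control siRNA vehicle replicate 1 (adjusted p = 0.0539) or 3 (adjusted p = 0.088), and without control siRNA R1881 replicate 2 (adjusted p = 0.114) or 3 (adjusted p = 0.105). The change in ERRγ siRNA cells was 0.21 (adjusted p = 0.353).

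UGT2B4, whose enzyme is known for conjugating bile acids in liver, was close to background throughout. Probe 2570209 was detected on 5 of the 12 arrays, with raw signals of 90.7 to 107.6, and its R1881 change was 0.28 (adjusted p = 0.136) in control siRNA cells. Probe 2570722 was detected on 0 arrays, at 92.7 to 103.2, and was not tested.

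Counted together, 11 of the 12 tested UGT2B probes were called at an adjusted p under 0.05 for R1881 in control siRNA cells, where 39.6% of all tested probes were called. Of these, 6 were higher and 5 lower, against 18.9% of all tested probes higher and 20.7% lower. Under the ERRγ siRNA 8 were called, where 36.6% of all tested probes were called. Of these, 3 were higher and 5 lower, against 17.4% of all tested probes higher and 19.2% lower. The 5 lower probes were those of UGT2B15 and UGT2B17 both times. The median log2 change of the 12 probes was 0.39 in control siRNA cells and 0.03 in ERRγ siRNA cells, with -0.012 and -0.01 over all tested probes. These medians lie between members that moved in opposite directions: single probes ran from -2.98 to 4.06 in control siRNA cells and from -3.40 to 3.57 in ERRγ siRNA cells. A probe that was detected only in the group where it was high, such as UGT2B15 probe 5860433, passed the filter through that group.

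**Figure D2:**
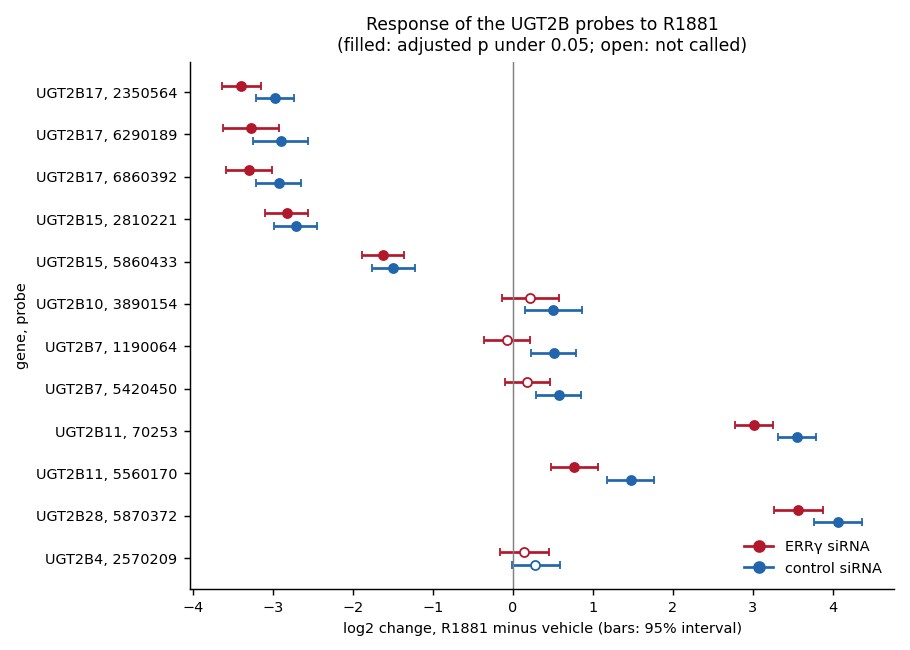
Log2 change with R1881 against vehicle (horizontal axis) for each tested UGT2B probe (vertical axis), in ERRγ siRNA cells (red) and control siRNA cells (blue). Bars are 95% intervals and filled points passed an adjusted p of 0.05. UGT2B17 and UGT2B15 lie left of 0, UGT2B11 and UGT2B28 right of it, and the UGT2B7 and UGT2B10 probes are filled for control siRNA only. The point of UGT2B15 probe 5860433 is the fitted change, not its bound.

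**Figure D3:**
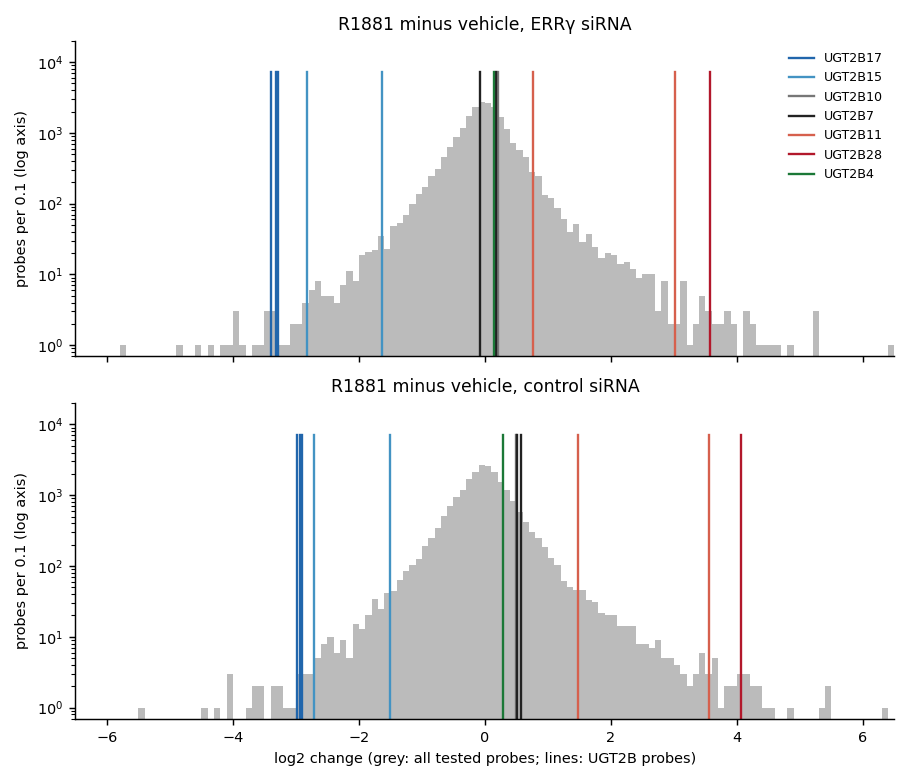
Distribution of the log2 change with R1881 against vehicle over the 21959 tested probes (grey bars, number of probes per 0.1 unit on a log axis), with the UGT2B probes as coloured lines, in ERRγ siRNA cells (top) and control siRNA cells (bottom). UGT2B17, UGT2B15 probe 2810221, UGT2B28 and UGT2B11 probe 70253 lie in the sparse tails, and UGT2B4, UGT2B7 and UGT2B10 in the centre.

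The size of these changes depended on how the background was treated, most of all for dim probes. In the authors' normalized table, the R1881 change in control siRNA cells was 2.67 for UGT2B28 probe 5870372, -0.87 for UGT2B17 probe 6290189 and -0.23 for UGT2B15 probe 5860433, all on the log2 scale. With no background correction, the same probes had changes of 3.18, -1.43 and -0.52. Each kept its direction and its call. Among brighter probes, UGT2B15 probe 2810221 had -2.05 in the authors' table and -2.33 with no background correction, against -2.72 as reported. UGT2B17 probe 6860392 moved less, with -2.84 in the authors' table and -2.76 with no background correction.

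The next comparison set ERRγ siRNA against control siRNA without androgen. The depletion itself was not detectable on these arrays. None of the 12 probes was called for ERRγ siRNA against control siRNA in vehicle, where 0.228% of all tested probes (50) were called. Before adjustment, 4 of the 12 had a p-value under 0.05, against 14.5% of all tested probes (3189). The changes ran from -0.07 to 0.46 on the log2 scale, with 11 of 12 positive and a median of 0.29. Over all tested probes 52.8% were positive and the median was 0.013. The groups did not overlap for 8 of the 12 probes, against 21.3% of all tested probes. The 12 probes stand for 7 related genes read on the same arrays, so such counts are not of independent members. This holds for the counts in every comparison.

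UGT2B11 probe 5560170 had the largest of these differences. Its raw signals in vehicle were 797, 705 and 852 with ERRγ siRNA, against 713, 585 and 551 with control siRNA. The change was 0.46 (95% interval 0.17 to 0.75, adjusted p = 0.152), and it passed under limma's trended, robust fit (adjusted p = 0.047). For UGT2B28 the change was 0.41 (0.10 to 0.71, adjusted p = 0.223), and for UGT2B7 probe 1190064 it was 0.34 (0.06 to 0.63, adjusted p = 0.259). UGT2B17 probe 6860392 had a change of 0.28 (-0.01 to 0.57, adjusted p = 0.351) and UGT2B15 probe 2810221 one of 0.18 (-0.09 to 0.45, adjusted p = 0.535).

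In R1881, ERRγ siRNA against control siRNA gave 0 calls by limma among the UGT2B probes and 0% among all tested probes. Before adjustment, 1 of the 12 had a p-value under 0.05, against 6.23% of all tested probes (1367). The changes ran from -0.32 to 0.07 with a median of -0.09, and 10 of 12 were negative. Over all tested probes 49.7% were positive and the median was -0.001. UGT2B11 probe 70253 was the furthest from 0. It read 2148, 2625 and 2613 with ERRγ siRNA, against 2473, 3069 and 2955 with control siRNA, a change of -0.32 (95% interval -0.55 to -0.09, adjusted p = 0.711). It was the only one of the 12 whose normalized groups did not overlap, against 10.9% of all tested probes.

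**Figure D4:**
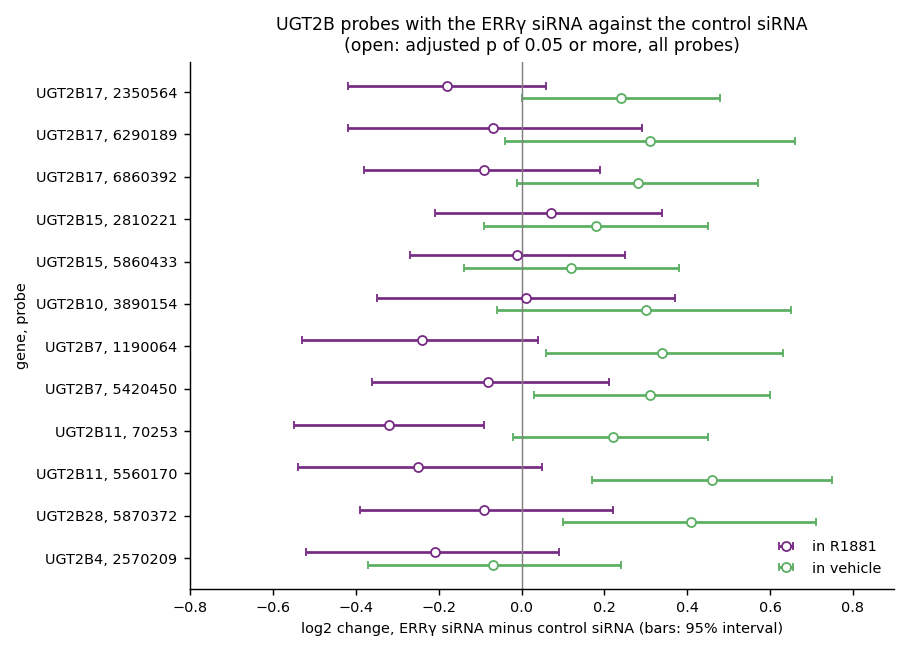
Log2 change with ERRγ siRNA against control siRNA (horizontal axis) for each tested UGT2B probe (vertical axis), in R1881 (purple) and in vehicle (green), with 95% intervals as bars. All points are open since none passed the test. The vehicle points reach from -0.07 to 0.46 and the R1881 points from -0.32 to 0.07.

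The interaction tests whether the response to R1881 itself differed between the siRNAs. By limma it was called for 0 of the 12 UGT2B probes and 0% of all tested probes. Before adjustment, 5 of the 12 had a p-value under 0.05, against 10.6% of all tested probes (2317). All 12 estimates were negative, from -0.71 to -0.12 with a median of -0.38, where 46.4% of all tested probes were positive and their median was -0.02. A negative value means a smaller rise, or a deeper fall, with R1881 in ERRγ siRNA cells. The 12 values share the same arrays, and the interaction is built from the siRNA comparisons already given, so their common sign adds nothing to those.

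UGT2B11 probe 5560170 gave the largest interaction, at -0.71 (95% interval -1.12 to -0.30, adjusted p = 0.28). UGT2B7 probe 1190064 followed with -0.59 (-0.99 to -0.18, adjusted p = 0.308), and UGT2B11 probe 70253 had -0.54 (-0.87 to -0.21, adjusted p = 0.286). UGT2B28 had -0.49 (-0.93 to -0.06, adjusted p = 0.421) and UGT2B17 probe 2350564 had -0.42 (-0.76 to -0.08, adjusted p = 0.386). UGT2B7 probe 5420450 had -0.39 (-0.79 to 0.01, adjusted p = 0.483) and UGT2B10 had -0.29 (-0.79 to 0.22, adjusted p = 0.699). UGT2B15 probe 2810221 had -0.12 (-0.50 to 0.27, adjusted p = 0.847). One array decided the only call among the alternatives: without control siRNA R1881 replicate 1, probe 5560170 had -0.85 (adjusted p = 0.0468), and 162 probes were then called over the whole array. The median 95% interval of an interaction, which is not adjusted for the number of probes, reached 0.365 to each side over all tested probes. For a typical probe with 3 arrays a group, an estimate below about that size did not reach an unadjusted p of 0.05 by limma. The smallest true difference that the design could detect was not computed. A call after adjustment asked for more, since even -0.71 was not called.

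The order of the 4 groups differed between the members. For UGT2B15 and UGT2B17 the ERRγ siRNA vehicle group was highest, then the control siRNA vehicle group, with both R1881 groups lowest. The R1881 groups of these probes overlapped each other. For UGT2B17 probe 6860392 the means were 8.96 ± 0.16 (ERRγ siRNA, R1881), 12.27 ± 0.12 (ERRγ siRNA, vehicle), 9.05 ± 0.29 (control siRNA, R1881) and 11.99 ± 0.07 (control siRNA, vehicle) on the log2 scale (SD, n = 3 each).

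For UGT2B11 and UGT2B28 the order ran from control siRNA with R1881, through ERRγ siRNA with R1881 and ERRγ siRNA with vehicle, to control siRNA with vehicle. UGT2B28 had means of 10.32 ± 0.20 (ERRγ siRNA, R1881), 6.75 ± 0.14 (ERRγ siRNA, vehicle), 10.41 ± 0.27 (control siRNA, R1881) and 6.34 ± 0.16 (control siRNA, vehicle). Its R1881 groups overlapped and its vehicle groups did not. UGT2B7 probe 1190064 lay within a narrow span, at 11.43 ± 0.09, 11.50 ± 0.07, 11.67 ± 0.32 and 11.16 ± 0.10 in the same order of groups, and only the control siRNA vehicle group did not overlap the next.

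Along chromosome 4 (RefSeq order, GRCh38.p14) the genes that fell stand next to each other at one end of the cluster. The order is UGT2B17, UGT2B15, UGT2B10, UGT2A3, UGT2B7, UGT2B11, UGT2B28 and UGT2B4. UGT2B11 and UGT2B28, which rose most, are likewise neighbours, and UGT2B10 and UGT2B7, with the small rises, lie between those pairs. UGT2A3 had no tested probe. Of 24 listed genes near the cluster, 2 had a tested probe: YTHDC1, a reader of methylated adenosine in RNA, fell (-0.52, adjusted p = 0.00048), and UBA6, a ubiquitin-activating enzyme, changed by 0.21 (adjusted p = 0.247), both for R1881 in control siRNA cells. With 7 genes, this order is a description and was not tested.

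**Figure D5:**
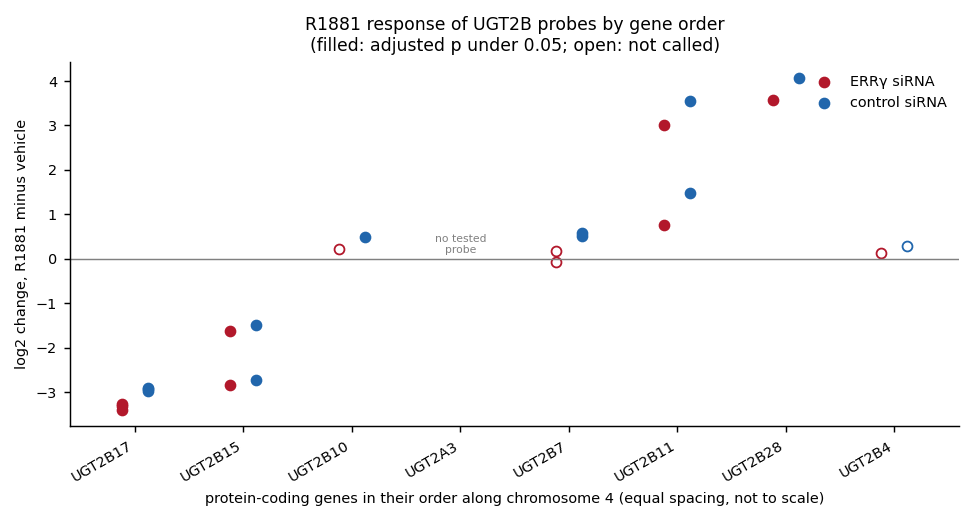
Log2 change with R1881 against vehicle (vertical axis) of each tested UGT2B probe, placed by the order of the genes along chromosome 4 (horizontal axis, equal spacing and not to scale), in ERRγ siRNA cells (red) and control siRNA cells (blue). Filled points passed an adjusted p of 0.05. UGT2B17 and UGT2B15 are lowest at the left, and UGT2B11 and UGT2B28 are highest near the right.

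Across the 12 arrays the members fell into patterns that the R1881 groups dominate. The correlations that follow are descriptions over arrays that share 4 groups and 1 normalization. UGT2B15 probe 2810221 and UGT2B17 probe 6860392 had a Pearson r of 0.998, as did UGT2B11 probe 70253 and UGT2B28 probe 5870372. UGT2B28 and UGT2B17 probe 6860392 had an r of -0.977. The probes of UGT2B11 had an r of 0.951 with each other and those of UGT2B7 one of 0.884. UGT2B10 was closest within the family to UGT2B7 probe 5420450, at 0.945.

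Among probes of other genes, the closest to the UGT2B15 probe with the highest mean log2 signal were those of UGT2B17, GASK1B and the cholesterol exporter ABCA1 (r of 0.998, 0.998 and 0.997). For UGT2B17 they were UGT2B15, the thioredoxin-binding TXNIP and the protein kinase A inhibitor PKIB (each 0.998). For UGT2B28 they were UGT2B11, NDFIP2 and the sorbitol dehydrogenase SORD (0.998, 0.998 and 0.997). UGT2B11 probe 5560170, the brighter of the pair by its mean log2 signal over the 12 arrays though not in R1881, was closest to the aldolase ALDOA, TMEM165 and YBX3 (0.991, 0.991 and 0.985). UGT2B10 was closest to STEEP1, UGT2B7 and SH3GLB1 (0.95, 0.945 and 0.942). UGT2B7 was closest to the chaperonin subunit CCT2, HNRNPM and the proteasome subunit PSMD6 (0.954, 0.948 and 0.923). The near-background UGT2B4 probe was closest to TGIF1, RABEP2 and THAP7, at lower values of 0.9, 0.874 and 0.859.

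Other genes of steroid conjugation were read from listed sets, each gene by its brightest tested probe, for R1881 against vehicle in control siRNA cells. Their counts are to be read against the 39.6% of all tested probes called there (18.9% higher and 20.7% lower) and a median of -0.012. Some of the probes were dim, and how far the size of their changes depends on the background treatment was not tested. Of 15 other UGT genes, 3 were tested, and none was called: UGT1A3 had a change of -0.15, UGT1A6 0.16 and UGT3A2 -0.09. All were dim, at raw signals of 113.8 to 131.1, 93.7 to 108.1 and 92 to 104, so they allow little statement on a response. The genes that supply UDP-glucuronic acid or handle glucuronides had 13 of 16 tested, with 4 higher and 2 lower, against 18.9% and 20.7% of all tested probes, and a median of 0.18. The higher ones included the exporters ABCC4 (1.93, adjusted p = 1.89e-08) and ABCC1 (0.92, adjusted p = 4.11e-05). ABCC1 was dim, at raw signals of 101.2 to 141.4. The lower ones were ABCC5 (-0.49, adjusted p = 0.000633) and GUSB, the glucuronidase that splits glucuronides (-0.31, adjusted p = 0.0341). UGDH, which makes UDP-glucuronic acid, had 0.26 (adjusted p = 0.0568) and was not called.

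Of 33 genes of androgen synthesis and inactivation, 23 were tested, with 8 higher and 4 lower, against 18.9% and 20.7% of all tested probes, and a median of 0.11. The higher ones included CYP3A5, which hydroxylates testosterone (1.89, adjusted p = 1.33e-07), CYP11A1, which cleaves the cholesterol side chain (1.79, adjusted p = 1.12e-05), and HSD17B11 (1.28, adjusted p = 1.35e-05). The lower ones included the 17β-hydroxysteroid dehydrogenases HSD17B14 (-1.87, adjusted p = 1.19e-07) and HSD17B1 (-0.61, adjusted p = 0.00468) and AKR1C3, which makes testosterone from androstenedione (-0.60, adjusted p = 0.000571). AKR1C3 was near background, detected on 6 arrays at raw signals of 94.9 to 117.9. CYP11A1 (97.5 to 208) and HSD17B14 (102.4 to 185.6) were dim. The lowest raw signals of CYP3A5, HSD17B1 and HSD17B11 were 111.1, 126.9 and 127.4. Of the same 23 genes, 8 were higher and 2 lower in ERRγ siRNA cells, where 36.6% of all tested probes were called.

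Sulfation is the other main conjugation of steroids. Of 11 sulfotransferase and sulfate-donor genes, 5 were tested, with 2 higher and 2 lower, where 39.6% of all tested probes were called. The donor synthase PAPSS1 (0.56) and SULT1A3 (0.47) rose, and SULT1A1 (-0.56) and SULT2B1 (-0.35) fell. SULT1A3 and SULT2B1 were dim, at raw signals of 132.8 to 169.3 and 136.3 to 173.7. SULT1A copies are near identical, so their probes may not tell them apart.

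Of 25 regulators linked to UGT2B genes, 16 were tested, with 2 higher and 6 lower, against 18.9% and 20.7% of all tested probes, and a median of -0.12. RXRA, a partner of many nuclear receptors, fell most (-1.19, adjusted p = 3.01e-05), followed by PBX2 (-0.76, adjusted p = 0.00239) and POU2F1 (-0.63, adjusted p = 0.00041). PBX2 and POU2F1 were dim, at raw signals of 109.7 to 146.7 and 111.4 to 139.2. FOXO1 (0.43, adjusted p = 0.00497) and NFE2L2 (0.35, adjusted p = 0.026) rose, and FOXO1 was dim, at raw signals of 121.6 to 155.1. FOXA1, a pioneer factor that opens chromatin (-0.36, adjusted p = 0.00298), was among the 6 lower ones. With ERRγ siRNA, 0 of the 16 regulators were higher and 7 lower with R1881, while the 13 supply and handling genes had 4 higher and 1 lower. Over all tested probes, 17.4% were higher and 19.2% lower there. For comparison, 17 of 18 tested genes of an androgen-induced list rose, with a median log2 change of 3.04. The changes of UGT2B28 (4.06) and UGT2B11 probe 70253 (3.55) were above it. UGT2B11 probe 5560170 (1.47) and the probes of UGT2B7 and UGT2B10 were below it. In the authors' table UGT2B28 had 2.67 and probe 70253 had 3.02, and the list's median was not computed there. KLK2 and STEAP4 of that list were detected on only 6 arrays. One gene of that list, the acid phosphatase ACP3, fell.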

How the data were processed

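LNCaP RNA was measured on 12 bead arrays, grouped by the sample titles. Per the file headers, the deposited table lists 47323 probes, each with a linear raw intensity and a detection p-value on every array. A second deposited table holds the authors' normalized log2 values, for which no normalization method is given in the sources used here. An oddity of the labels is that they name an Affymetrix labelling protocol, although the probe identifiers are those of bead arrays.

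The 92 spike-in probes were left out. Background was removed from the intensities by nec in limma 3.58.1 (R 4.3.3), driven by the detection p-values (offset 16). Quantile normalization and log2 followed. Probes with a detection p-value under 0.05 on at least 3 arrays were fitted with lmFit and eBayes, with 1 mean per group, and p-values were adjusted by Benjamini-Hochberg over 21959 probes in each of 5 comparisons. Every adjusted p in the text is from limma. The fit was tested on simulated data. With 3 arrays a group an exact permutation test of a single probe cannot go below p = 0.1. Median raw intensities were 93.9 to 101 an array, and the number of arrays limits the precision. Arrays of one group had correlations of 0.9894 to 0.9946.

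Probes were assigned by the symbol in the table. Promoters are from a table of RefSeq sequences (GRCh38.p14), and those of 4 of the 7 genes were used here. The members, gene lists, tests and motifs were chosen with earlier results of these data known. The text names each UGT2B probe, up to 3 rising and 3 falling called genes of each list by size, and the 3 most alike probes of other genes for each member; UGDH and FOXA1 were added after their values were seen. Some genes that this rule would name are not reported here.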

Additional observations from a re-analysis of the deposited data

How the results depend on the processing

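Background treatment, normalization, filter, model and leaving out each array in turn were varied. For R1881 against vehicle, 174 values of called probes in control siRNA cells and 130 in ERRγ siRNA cells kept their direction and call, and the 6 lost calls were all of UGT2B10. The number of called UGT2B probes stayed at 10 to 11 and at 8 without any one array. Keeping only the brightest probe a gene gave 6 and 4 called of 7, since fewer probes were tested. For ERRγ siRNA against control siRNA in vehicle, limma with trend and robust gave 1 (UGT2B11 probe 5560170). Leaving out single arrays gave 0 to 1 interaction calls. Over all probes, calls for ERRγ siRNA in vehicle were 50 as reported, 6 to 473 under other settings and 1 to 66 without 1 array; interaction calls were 0 as reported, up to 40 under other settings and up to 162 without 1 array. The causes were not tested. Of the 50 calls 10% were higher, against 36.6% of 473 with no background correction, 29.8% of 453 with an offset of 50, 35.5% of 155 in the authors' table and 31.1% of 315 with trend and robust.

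Sign changes concerned uncalled values alone, and their cause was not tested. Median scaling gave 0.13 for UGT2B7 probe 1190064 (R1881, ERRγ siRNA cells) and 0.04 for UGT2B7 probe 5420450 (ERRγ siRNA, in R1881). For ERRγ siRNA in R1881, UGT2B10 had -0.01 in the authors' table, and UGT2B15 probe 5860433 had 0.01 with no background correction. Without single arrays, that comparison spanned -0.25 to 0.03 for UGT2B7 probe 5420450, -0.20 to 0.17 for UGT2B10, -0.07 to 0.21 and -0.10 to 0.07 for UGT2B15 probes 2810221 and 5860433, -0.22 to 0.08 and -0.25 to 0.04 for UGT2B17 probes 6290189 and 6860392, and -0.22 to 0.05 for UGT2B28. UGT2B4 spanned -0.18 to 0.03 for ERRγ siRNA in vehicle, and UGT2B15 probe 2810221 -0.25 to 0.03 for the interaction.

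Same-numbered arrays did not deviate together (r of -0.249 to 0.115 over 18 pairs, 1 over 0.1, and 7 best with their own number), so the numbers were not taken as pairs. A replicate block left 11, 8, 0, 0 and 0 called UGT2B probes in the 5 comparisons. The series' value table equals the authors' normalized table and was not run again, and no slide or scan was used as a block. Probes near background, such as those of UGT2B4, ESRRG and UGT2B15 probe 5860433 in R1881, allow no statement on lower levels.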
